A study of Drosophila melanogaster with 15 samples.

Results

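Chromosome 4, the smallest chromosome of Drosophila melanogaster, was examined in RNA-seq of whole male antennae, gene by gene and sample by sample. Its members were the rows of the count table that lie on chromosome 4 alone, leaving out onecut, CaMKII, the dpr genes and the rows for long noncoding and antisense RNAs. The rule used position and name and no measured value. It took 83 of the 109 rows on the chromosome, and of 17490 rows in the table. The members are 76 protein-coding genes, 6 pseudogenes and 1 small nucleolar RNA gene, and they run from position 879 to position 1271759 of chr4 in the dm6 build.

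The flies were males aged 7 days, and each sample pooled 180 antennae. The single-housed wild type (w1118 SH) eclosed and aged alone, and all other groups were housed as groups of males. Or47b1 males lacked the odorant receptor Or47b and were also homozygous for Or47b-GAL4 and UAS-mCD8GFP transgenes. Or67dGAL4 males were homozygous for GAL4 at the Or67d receptor gene and for a UAS-mCD8GFP transgene. fruLexA/fru4-40 males, in a w+ background with no GFP transgene listed, carried a LexA insertion in the male-specific fruitless reading frame over a deletion that removes fruitless promoters. The group-housed wild type (w1118 GH) was the reference, and it shared age, sex and tissue with the mutants but not their genetic background. There were 3 samples each of w1118 SH, Or47b1, Or67dGAL4 and w1118 GH. Of fruLexA/fru4-40, samples 2 and 3 were used, and sample 1, whose label carries a quality warning, was kept apart. The study's methods call the samples biological replicates, and the labels do not say whether they came from separate cultures, so p-values measure the spread between these samples.

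Chromosome 4 is also called the dot chromosome, for its look in stained cells. Most of it is packed in chromatin with heterochromatic marks and HP1a, yet its genes are transcribed, and the protein POF, named for painting this chromosome, binds those genes along the chromosome. Flies tolerate loss or gain of a copy of it better than a change in dose of any larger arm. Its genes include developmental transcription factors (ci, pan, ey, toy, sv), synaptic and guidance proteins, TGF-beta family ligands and a few genes that every cell uses.

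The 14 samples held 8570425 to 14908299 gene counts, with a median of 10691513.5. A gene was tested if it passed a filter on low counts, and it was called at a Benjamini-Hochberg adjusted p below 0.05 in edgeR's quasi-likelihood test, adjusted over all 10358 tested genes within a comparison. The targeted receptors checked the labels, with a log2 fold change of -7.43 for Or47b in Or47b1 and -7.0 for Or67d in Or67dGAL4, while the whole fru gene, at -0.15 (adjusted p = 0.44), cannot check its mutant. Summed markers of olfactory neurons and antennal support cells were abundant in all 14 samples, as the label antenna requires. The sum of glial markers was nearly all Gs2, at 1085 to 1432 RPKM, while moody, repo, Eaat1 and alrm were at most 42.4 RPKM. The summed level of 10 muscle markers varied widely between samples, from 7.66 to 196 RPKM. In whole antennae, fewer cells of a type and less RNA per cell cannot be told apart.

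Genes of chromosome 4 were widely and highly expressed in the antenna. Of the 83 members, 76 passed the filter (91.6%). With the same names left out of the other arms, 64.3% (2R) to 73.2% (X) of their rows passed. Over all 109 rows of chromosome 4 the share was 85.3%, against 55.2% to 67.3% of all rows on the other arms. The 7 below the filter were the Na,K-ATPase-like gene JYalpha, snoRNA:CD-24, the forkhead gene fd102C, the pseudogenes CR33797 and CR43361, the Pax6 gene toy and Mpv17. CR33797 had 0 counts in the 14 samples and toy had 87. The level of a gene is given as RPKM, its counts scaled by TMM library size and by kilobases of exon. The tested members had a median of 33.2 RPKM over the 14 samples, against medians of 11.7 to 13.6 RPKM on 2L, 2R, 3L, 3R and X. Above 10 RPKM stood 85.5% of tested members (65 of 76), against 56.3% of all tested genes. Members were also longer, with a median exon length of 4380.5 bases and a median span of 10444.5 bases among those tested, against 2029 and 2696 bases over all tested genes.

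The most abundant members were genes of general metabolism and translation. ATPsynbeta (chr4:1031484-1034917), the beta subunit of the mitochondrial ATP synthase, averaged 708 RPKM, the rank of 61 among tested genes. RpS3A (chr4:65225-67207), a ribosomal protein, averaged 543 RPKM, and ND-49 (chr4:568296-571554), a subunit of respiratory complex I, averaged 239 RPKM. CG31997 (chr4:154654-156060), a short gene of undescribed role, averaged 258 RPKM. Below them stood the small GTPase Arf4 at 127 RPKM, the calmodulin-dependent kinase CaMKI at 119 RPKM and the ankyrin gene Ank at 90.6 RPKM. The means of Ank and PMCA (90.6 RPKM), a plasma membrane calcium pump, differed by less than each gene's spread between samples.

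The 13 tested transcription factors and chromatin proteins ranged from 0.172 RPKM (fuss) to 41.8 RPKM (lgs, a Wnt coactivator). The Pax6 gene ey stood at 0.321 RPKM and fuss, a Ski family gene, at 99 counts in all 14 samples together. The 12 genes of neuronal signalling and guidance ranged from 0.648 RPKM for mGluR, the metabotropic glutamate receptor, to 71.0 RPKM for Cadps, a vesicle secretion factor. The 3 TGF-beta family ligands had like levels, at 34.6 RPKM for Actbeta, 31.7 RPKM for myo and 29.3 RPKM for mav. The transcription factors toy and fd102C, below the filter, averaged 0.159 and 0.0159 RPKM, near 0 like ey and fuss. Most members of each role were well above that.

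The members differed between samples largely as a block. For each sample, the log2 difference of each gene from its w1118 GH mean was taken, on CPM plus 0.5. The median over the 76 tested members was -0.05, -0.34 and -0.22 in w1118 SH samples 1, 2 and 3. It was -0.01, 0.13 and -0.09 in Or47b1, and 0.02, 0.58 and 0.50 in Or67dGAL4. In fruLexA/fru4-40 it was 0.42 in sample 2 and 0.07 in sample 3. In w1118 GH itself it was -0.04, 0.09 and -0.03. The medians of 2L, 2R, 3L, 3R and X lay between -0.05 and 0.10 in all 14 samples. The libraries that stood apart on chromosome 4 were thus w1118 SH 2 and 3, downward, and Or67dGAL4 2 and 3 and fruLexA/fru4-40 2, upward.

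**Figure D1:**
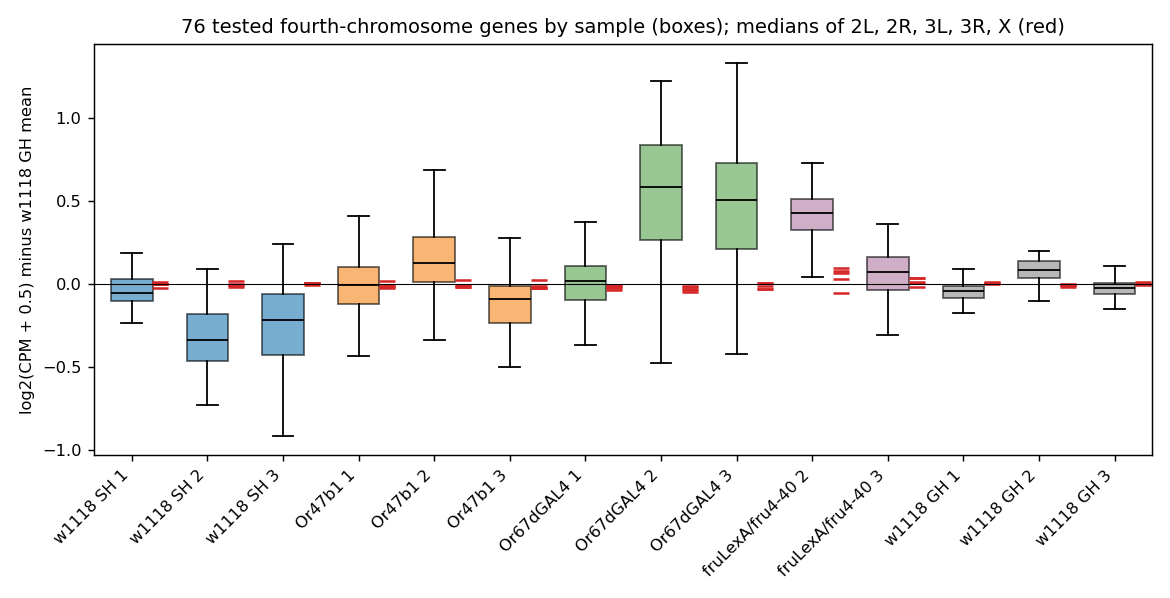
Each box shows the median, quartiles and whiskers (to 1.5 times the quartile range, with genes beyond them not drawn) of the log2 difference from the w1118 GH mean over 76 tested chromosome 4 genes in 1 sample, and the red dashes beside it are the medians of 2L, 2R, 3L, 3R and X. The dashes stay between -0.05 and 0.10, while the boxes of Or67dGAL4 2 and 3 centre on 0.58 and 0.50 and that of w1118 SH 2 on -0.34.

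The share of all gene counts that fell on the 83 members gave the same picture. It was 1.51%, 1.21% and 1.30% in w1118 SH samples 1 to 3, and 1.55%, 1.64% and 1.44% in Or47b1. It was 1.54%, 2.05% and 2.00% in Or67dGAL4, and 1.98% and 1.63% in fruLexA/fru4-40 samples 2 and 3. In w1118 GH it was 1.51%, 1.57% and 1.52%. The mean share of single-housed males was 1.34% ± 0.155 (SD, n = 3), against 1.53% ± 0.0318 (SD, n = 3) in w1118 GH. Among mutants the mean was 1.55% ± 0.0979 for Or47b1 and 1.86% ± 0.279 for Or67dGAL4 (SD, n = 3 each), and 1.80% ± 0.252 for fruLexA/fru4-40 (SD, n = 2). The SD within Or67dGAL4 was close to the difference of its mean from that of w1118 GH. Counting error is small beside these differences, with Wilson 95% intervals of 1.53% to 1.55% for Or67dGAL4 1 and 2.04% to 2.06% for Or67dGAL4 2. Such intervals cover counting error only and leave out the variation between samples.

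Samples of one genotype and housing can be compared directly, with no control shared between such pairs of different groups. Between Or67dGAL4 samples 2 and 1 the members differed by a median of 0.60 (log2), with 72 of 76 higher in sample 2. Between Or67dGAL4 samples 3 and 1 the median was 0.53, with 71 of 76 higher in sample 3. Between fruLexA/fru4-40 samples 2 and 3 it was 0.37, with 72 of 76 higher in sample 2. Between w1118 SH samples 2 and 1 it was -0.30, with 74 of 76 lower in sample 2. Between Or47b1 samples 2 and 3 it was 0.27, and between w1118 GH samples 2 and 1 it was 0.14. In each of these pairs the 17 tested rows of chromosome 4 that the rule left out had a like median, at 0.69, 0.51, 0.39, -0.38, 0.31 and 0.12 in the same order. The left-out rows therefore moved with the members, although some of them share exon bases with a member.

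The difference extended along the whole chromosome. For Or67dGAL4 sample 2 minus sample 1, the 38 tested members at lower positions had a median of 0.60 and the 38 at higher positions 0.60. For fruLexA/fru4-40 sample 2 minus sample 3 the medians were 0.38 and 0.36, and for w1118 SH sample 2 minus sample 1 they were -0.30 and -0.29. The 79 tested genes of the other arms within 1 Mb of the centromeric end of their arm, a set chosen after the values were seen, had medians of 0.19, 0.15 and -0.16 in those pairs. These lay between the members and the arms as a whole, whose medians were between -0.05 and 0.03. Genes of the other arms as long as the longer members (1985 genes) had medians of 0.14, -0.07 and 0.06 in those pairs. Those values are smaller than the members' and, in the last 2 pairs, of the opposite sign.

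Markers of neurons differed between the same samples, but not in one direction. elav, which encodes a neuronal RNA-binding protein, had 19.7, 31.7 and 30.2 RPKM in Or67dGAL4 samples 1, 2 and 3, and 19.7, 17 and 16 RPKM in w1118 SH. It had 22.9, 26 and 22.9 RPKM in Or47b1 and 22.7 and 21.8 RPKM in fruLexA/fru4-40, against 19.7, 21.5 and 19.7 RPKM in w1118 GH. elav was thus high in the Or67dGAL4 samples where the members were high, and low in the w1118 SH samples where they were low. The synaptic vesicle gene nSyb had 241, 311 and 303 RPKM in Or67dGAL4, and 245, 247 and 257 RPKM in w1118 SH, against 239, 265 and 260 RPKM in w1118 GH. The odorant co-receptor gene Orco had 1288, 1186 and 1097 RPKM in Or67dGAL4, and 1521, 1641 and 1541 RPKM in w1118 SH, against 1352, 1426 and 1417 RPKM in w1118 GH. Orco was lowest in Or67dGAL4 samples 2 and 3 of that group and highest of its group in w1118 SH 2, against the direction of the members. The other olfactory neuron markers, Ir25a, Ir8a and Or22a, also ran against the members within Or67dGAL4. In samples 1, 2 and 3 Ir25a had 88.6, 79.9 and 75.98 RPKM, Ir8a 57.5, 50.6 and 48.2 RPKM and Or22a 70.1, 66.3 and 54.5 RPKM. In w1118 SH they were mixed, at 143.7, 151.4 and 148.1 RPKM for Ir25a and 89.3, 86.9 and 86.8 RPKM for Ir8a. Or22a had 62.9, 56.8 and 63.8 RPKM there. The part of neuronal RNA in the chromosome-wide differences was not tested.

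**Figure D2:**
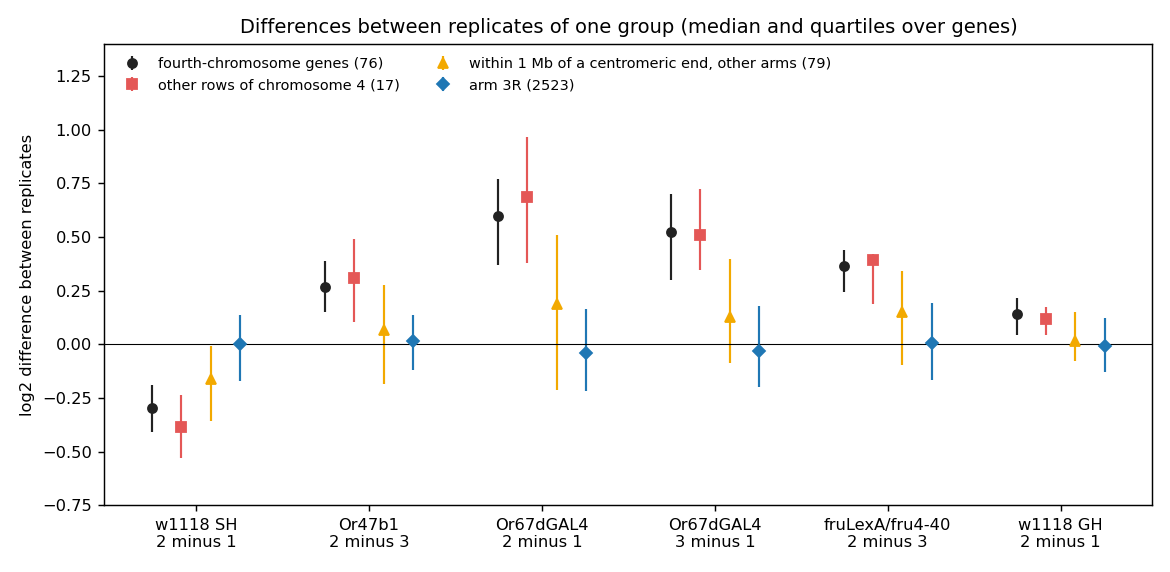
Points are medians and bars quartiles, over genes, of the log2 difference between 2 samples of one group, for 76 chromosome 4 genes, 17 other rows of chromosome 4, 79 genes near a centromeric end of another arm and 2523 genes of 3R. The first 2 sets lie together in all 6 pairs, from -0.38 to 0.69, and 3R stays near 0.

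Within groups the members were correlated with each other. After the group means were removed, the median Pearson correlation over 2850 pairs of tested members was 0.75 across the 14 samples, against medians of -0.00 to 0.01 for pairs within 2L, 2R, 3L, 3R or X. The points share their libraries, so this is a description of the block movement and no test. The median within-group SD of a member was 0.23 on the log2 scale, against 0.14 to 0.15 on the other arms, 0.21 for the 79 genes near centromeric ends and 0.12 for the long genes of other arms. It was 0.11 after the median of the members had been subtracted in each sample. Members were thus more spread between replicates than the arms as a whole on the scale of all genes, with the genes near centromeric ends close to them, and less so relative to their own chromosome.

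All roles took part in the block, though not to one extent. For Or67dGAL4 sample 2 minus sample 1, all 12 genes of neuronal signalling and guidance were higher, with a median of 0.67, and so were all 13 transcription and chromatin proteins, with a median of 0.35. All 8 kinases, adaptors and small GTPases were higher, with a median of 0.56. The smallest and opposite differences were those of the most abundant genes, at -0.25 for RpS3A, -0.20 for ND-49, -0.19 for ATPsynbeta and -0.04 for CG31997, which made up the 4 exceptions. At the other end stood CG33941 at 1.29, Ekar at 1.14 and the Polycomb group gene pho at 1.10. Spearman's rho of this difference with the mean RPKM over the 76 members was -0.29, and with exon length 0.09.

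**Figure D3:**
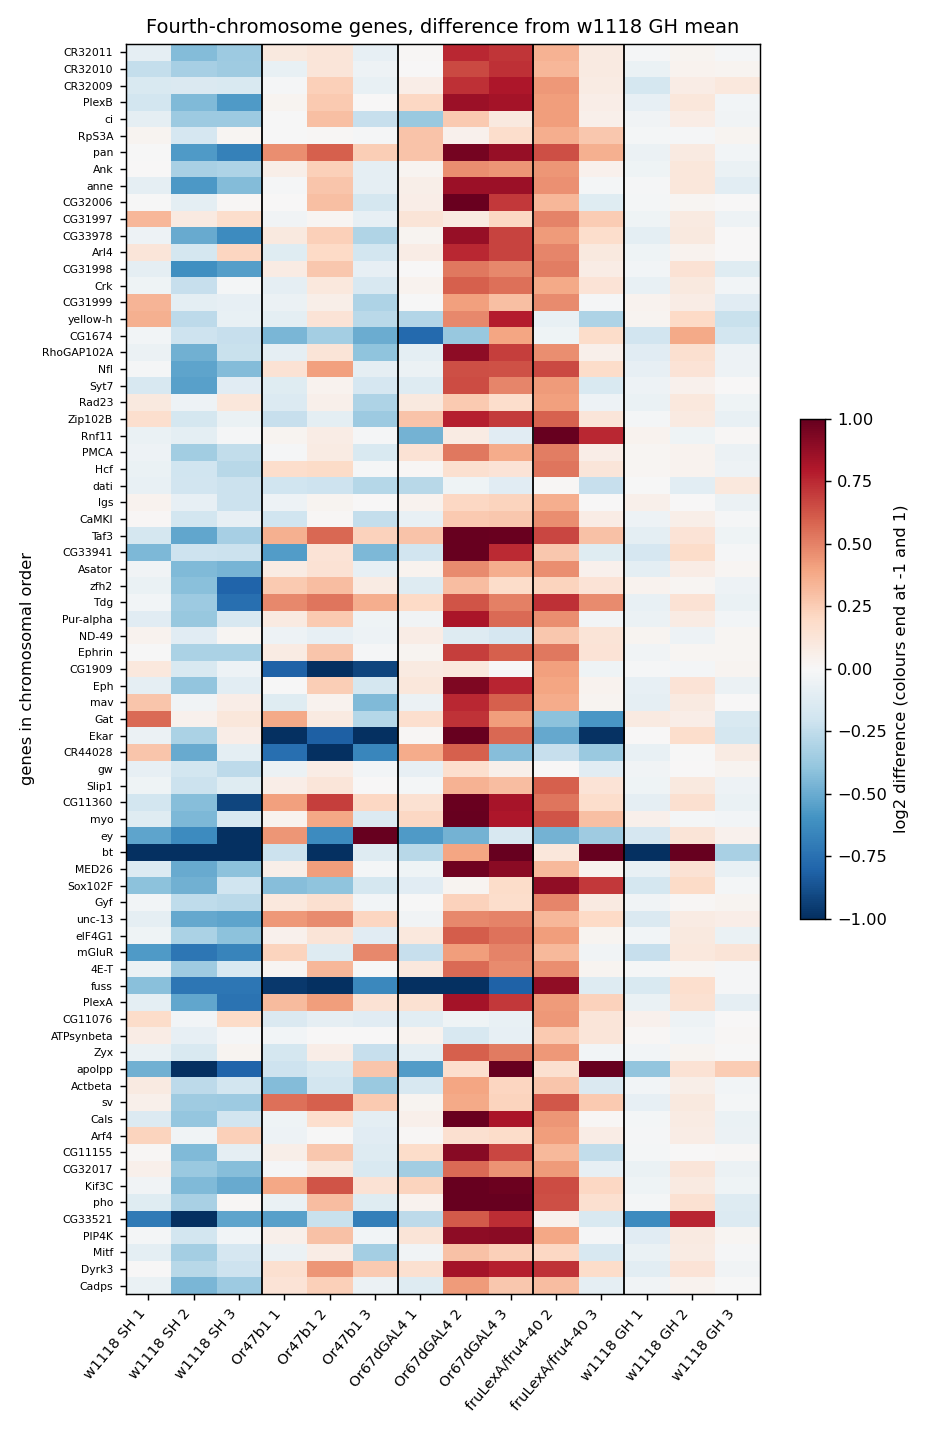
Rows are 75 of the 76 tested chromosome 4 genes in chromosomal order and columns the 14 samples. Colour is the log2 difference from the w1118 GH mean, and colours end at -1 and 1. The columns of Or67dGAL4 2 and 3 and fruLexA/fru4-40 2 are red and that of w1118 SH 2 is blue for nearly all genes. CG1909, Ekar, Rnf11 and Sox102F differ from most genes in the level of some groups, and bt and apolpp in some samples.

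The giant muscle protein gene bt (chr4:724400-776474) and the lipoprotein gene apolpp (chr4:1060969-1077273) moved with the block in some pairs of samples only. For Or67dGAL4 sample 2 minus sample 1 they were at 0.67 and 0.72. For w1118 SH sample 2 minus sample 1 they were at -0.70 and -0.51, again in the block's direction. Against it, they were at -1.36 and -1.41 for fruLexA/fru4-40 sample 2 minus sample 3. For Or47b1 sample 2 minus sample 3 they were at -1.30 and -0.43, also against it. bt had 0.373, 0.222 and 0.510 RPKM in w1118 SH, 1.36, 0.579 and 1.45 RPKM in Or47b1 and 1.31, 2.09 and 4.80 RPKM in Or67dGAL4. It had 1.72 and 4.43 RPKM in fruLexA/fru4-40 and 0.523, 5.92 and 1.26 RPKM in w1118 GH. The samples highest in bt, w1118 GH 2, Or67dGAL4 3 and fruLexA/fru4-40 3, were also highest in the 10 muscle markers, at 171, 187 and 196 RPKM summed, while w1118 SH 2 was lowest in both, with 7.66 RPKM of muscle markers. apolpp, whose product carries lipids in the hemolymph, was highest in fruLexA/fru4-40 3 at 31.2 RPKM and in Or67dGAL4 3 at 26.4 RPKM, against 7.96 to 12.5 RPKM in w1118 GH. The 5 fat body markers together had 5.86 and 14.5 RPKM in those samples, against 3.38 to 4.13 RPKM in w1118 GH, and Fbp1 was at or near 0 in all samples. The highest fat body sum was 22.5 RPKM, in Or47b1 3, where apolpp stood at 12.7 RPKM, and Or47b1 2 had 6.49 RPKM with apolpp at 9.41 RPKM, so the 2 did not run in parallel throughout. What part muscle or fat body RNA had in these values was not tested.

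Single housing of wild-type males changed no member past the threshold. Of the 76 tested members 0 were called in w1118 SH against w1118 GH by edgeR, against 0.994% of all tested genes. An unadjusted p under 0.05 was found for 14, a threshold for which the share of all tested genes is not given. DESeq2 called 1 member, bt. The median log2 fold change of the members was -0.20, against -0.00 for all tested genes. Of the members 9 of 76 were positive (11.8%), against 49.5% of all tested genes. The lowest fold changes were those of bt at -2.77 (adjusted p = 0.143), ey at -1.10 (adjusted p = 0.297) and fuss at -1.04 (adjusted p = 0.432), all low in expression. mGluR had 0.38 ± 0.026 RPKM in w1118 SH and 0.64 ± 0.095 RPKM in w1118 GH (SD, n = 3 each), with a log2 fold change of -0.76 ± 0.26 (SE, adjusted p = 0.181). The groups did not overlap for mGluR, but the difference did not pass the test over all genes. Over the members, Spearman's rho of the fold change was -0.68 with exon length and 0.60 with mean RPKM, against -0.16 and 0.33 over 10259 tested genes of 2L, 2R, 3L, 3R and X. Without w1118 SH sample 1 the test called 1 member, the homeodomain and zinc finger gene zfh2, at a log2 fold change of -0.60, and without w1118 GH sample 1 it called bt.

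In Or47b1, 4 of 76 members were called (5.26%), against 20.4% of all tested genes. That count depended on the fit, since 13 were called with the compared groups only and 18 with w1118 SH as the reference. Of these 1 was higher, against 10.5% of all tested genes called higher, and 3 were lower, against 9.97% called lower. The median log2 fold change of the members was 0.03, against -0.01 for all tested genes. On the other arms 16.1% (X) to 24.2% (2R) of tested genes were called. The median within-group SD of a member was 0.23 on the log2 scale, against 0.14 to 0.15 on those arms. The part of that wider spread in the lower share of members called was not tested. The count of members called was 8 without Or67dGAL4 sample 1 and 2 without w1118 GH sample 1 or 3 or Or47b1 sample 1 or 2. The shares of all tested genes called in these other fits are not given, so the counts also carry any change in power.

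CG1909 (chr4:583108-589348) changed most firmly in Or47b1. It had 39.7, 33.9 and 36.7 RPKM in Or47b1, against 69.1, 69.0 and 71.2 RPKM in w1118 GH. Every Or47b1 sample lay below every sample of any other group, since the lowest of those was 62.7 RPKM in w1118 SH 2. The log2 fold change was -0.92 ± 0.11 (SE, adjusted p = 3.6e-05), and it stayed between -0.98 and -0.87 with any 1 of the 14 samples left out. The kainate-type glutamate receptor gene Ekar (chr4:636131-646556) had 1.25, 1.77 and 1.08 RPKM in Or47b1, against 3.25, 3.68 and 2.85 RPKM in w1118 GH. It fell with a log2 fold change of -1.25 ± 0.28 (SE, adjusted p = 0.0067), and the groups did not overlap. The pseudogene CR44028 lies in an intron of Ekar on the other strand, and the counts were taken not to separate strands. It had 2, 0 and 2 counts in Or47b1, against 9, 7 and 8 counts in w1118 GH, and its call (adjusted p = 0.049) was lost in 9 of the 12 fits without 1 sample that tested it.

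sv (chr4:1088798-1113317), the Pax2 family gene that acts in bristle and sense organ cells, was the member called higher. It had 47.3, 48.8 and 38.6 RPKM in Or47b1, against 30.4, 34.5 and 31.8 RPKM in w1118 GH, with no overlap. Its log2 fold change was 0.48 ± 0.14 (SE, adjusted p = 0.025). The call was lost without Or47b1 sample 1 or 2 or w1118 GH sample 1 or 3, at adjusted p of 0.069 to 0.095, with fold changes of 0.42 to 0.47.

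In Or67dGAL4, 29 of 76 members were called (38.2%), against 29.5% of all tested genes. The direction was nearly uniform, with 28 called higher (36.8%), against 14.4% of all tested genes called higher, and 1 called lower, against 15.1%. The median log2 fold change of the members was 0.38, against -0.02 for all tested genes. Of the members 68 of 76 were positive (89.5%), against 47.6% of all tested genes. The rise lay in samples 2 and 3, whose member medians were 0.58 and 0.50. Without sample 2 the test called 4 members and without sample 3 it called 10, while without sample 1 it called 46. Without w1118 GH sample 1 or 3 it called 12. The shares of all tested genes called in those fits are not given, so the counts also carry any change in power. The median log2 fold change was 0.26 to 0.57 with any 1 of the 14 samples left out. Since sample 1 had a member median of 0.02, the fold changes below average 1 sample near the w1118 GH level and 2 samples above it.

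The largest called rises with no overlap between the groups were in Kif3C, Taf3, pan, myo, PIP4K and PlexB. The kinesin motor gene Kif3C (chr4:1147466-1169239) had 18.6, 37.3 and 31.5 RPKM in Or67dGAL4, against 15.4, 16.9 and 15.4 RPKM in w1118 GH. The TFIID subunit gene Taf3 (chr4:459887-466828) had 37.9, 64.6 and 61.8 RPKM in Or67dGAL4, against 29.1, 34.3 and 30.2 RPKM in w1118 GH. In both genes sample 1 stood just above the highest w1118 GH sample and samples 2 and 3 far above it. The log2 fold changes were 0.87 ± 0.22 (SE, adjusted p = 0.010) for Kif3C and 0.81 ± 0.18 (SE, adjusted p = 0.0043) for Taf3. pan (chr4:69326-114270), the TCF factor at the end of the Wnt pathway, had 19.9, 31.6 and 29.9 RPKM in Or67dGAL4, against 15.6, 17.3 and 16.0 RPKM in w1118 GH. The TGF-beta ligand gene myo (chr4:690686-696055) had 31.1, 54.6 and 47.2 RPKM in Or67dGAL4, against 27.9, 26.5 and 26.4 RPKM in w1118 GH. These had log2 fold changes of 0.73 ± 0.19 for pan (SE, adjusted p = 0.011) and 0.72 ± 0.18 for myo (SE, adjusted p = 0.011).

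The phosphoinositide kinase gene PIP4K (chr4:1192419-1196848) had 75.2, 128.0 and 128.4 RPKM in Or67dGAL4, against 63.4, 73.2 and 69.6 RPKM in w1118 GH. The semaphorin receptor gene PlexB (chr4:32478-43778) had 21.8, 34.0 and 33.6 RPKM in Or67dGAL4, against 17.7, 20.3 and 18.5 RPKM in w1118 GH. They followed the same sample pattern, and their log2 fold changes were 0.69 ± 0.17 for PIP4K and 0.66 ± 0.16 for PlexB. Without Or67dGAL4 sample 2 the calls of Kif3C, pan, myo and PIP4K were lost, at adjusted p of 0.052 to 0.056, while Taf3 and PlexB kept theirs.

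The other called rises in Or67dGAL4 crossed the roles. Set beside the 14.4% of all tested genes called higher, 6 of the 12 genes of neuronal signalling and guidance were, namely PlexA, PlexB, Eph, Ephrin, CG11155 and Cals, from 0.47 (Ephrin) to 0.67 (Cals) on the log2 scale. The receptor Eph and its ligand Ephrin thus both rose, and so did both plexins. Of the 8 kinases, adaptors and small GTPases 4 were called higher, which were PIP4K, Dyrk3, Arl4 and Crk. Of the 13 transcription and chromatin proteins 2 were called higher, pan and pho, a share near that of all genes, and 1 lower, fuss. Of the 12 genes of translation, RNA handling and general cell functions 5 were called higher, which were Kif3C, Tdg, the Mediator subunit gene MED26 and the translation genes eIF4G1 and 4E-T. myo was called among the 3 TGF-beta ligands, the zinc transporter gene Zip102B among 4 muscle, lipid and cytoskeleton genes, and 9 of 24 other members. Those 9 include the neighbouring pseudogenes CR32009, CR32010 and CR32011, whose likeness in sequence was not checked. fuss (chr4:962341-978489) had 0, 2 and 3 counts in Or67dGAL4, against 13, 13 and 11 counts in w1118 GH. The groups did not overlap, and its log2 fold change was -2.41 ± 0.70 (SE, adjusted p = 0.021). The fuss call was lost without Or67dGAL4 sample 2, at adjusted p = 0.064, and without fruLexA/fru4-40 sample 2 or 3, at 0.056 and 0.050. Antisense and noncoding rows overlap 21.2% of its exon bases.

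In fruLexA/fru4-40, 9 of 76 members were called (11.8%), all of them higher. Among all tested genes 30.8% were called, 15.5% higher and 15.3% lower. As for Or47b1, the part of the members' wider spread within groups in their lower share called was not tested. The median log2 fold change of the members was 0.26, against 0.04 for all tested genes. Of the members 68 of 76 were positive (89.5%), against 54.1% of all tested genes. Without sample 2, which had the larger chromosome-wide difference, the test called 2 members, and without sample 3 it called 19. Those fits keep 1 mutant sample, which is assumed to vary like the other groups. It called 19 without Or67dGAL4 sample 1, and 5 and 4 without w1118 GH samples 1 and 3. The shares of all tested genes called in these fits are not given. The median log2 fold change of the members was 0.08 to 0.42 with any 1 sample left out.

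Rnf11 and Sox102F were the firmest of these. Rnf11 (chr4:314923-331387), a RING finger gene, had 24.4 and 20.4 RPKM in fruLexA/fru4-40, against 12.4, 11.7 and 12.1 RPKM in w1118 GH. No sample of w1118 SH, Or47b1 or Or67dGAL4 was above 12.7 RPKM. Its log2 fold change was 0.89 ± 0.12 (SE, adjusted p = 0.00021), and it stayed between 0.76 and 1.01 without any 1 sample. PMCA covers 56.1% of its exon bases from the other strand, and PMCA itself had 122.0 and 89.3 RPKM in fruLexA/fru4-40, against 86.4, 87.6 and 82.2 RPKM in w1118 GH. The SoxD gene Sox102F (chr4:800436-834393) had 3.88 and 3.41 RPKM in fruLexA/fru4-40, against 1.80, 2.35 and 2.02 RPKM in w1118 GH. Its log2 fold change was 0.83 ± 0.15 (SE, adjusted p = 0.0015), and between 0.74 and 0.94 without any 1 sample. Both mutant samples lay above the other 12 of the 14 samples in both genes.

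Tdg, sv, Slip1, CG31997, RpS3A, Hcf and CG11076 were also called higher in fruLexA/fru4-40. The DNA glycosylase gene Tdg (chr4:538332-557854) had 26.6 and 22.3 RPKM in fruLexA/fru4-40, against 15.2, 17.7 and 15.3 RPKM in w1118 GH, and its log2 fold change was 0.60 ± 0.17 (SE, adjusted p = 0.018). sv had 49.5 and 38.5 RPKM in fruLexA/fru4-40, against 30.4, 34.5 and 31.8 RPKM in w1118 GH, and its log2 fold change was 0.45 ± 0.15 (SE, adjusted p = 0.039). CG31997 had 333.1 and 282.5 RPKM in fruLexA/fru4-40, against 229.9, 250.9 and 228.5 RPKM in w1118 GH. Slip1 (chr4:663621-669884) had 64.0 and 46.3 RPKM in fruLexA/fru4-40, against 40.8, 45.2 and 40.6 RPKM in w1118 GH. Its log2 fold change of 0.39 (adjusted p = 0.039) was 0.14 (adjusted p = 0.527) without sample 2, a fit in which the lone mutant sample is assumed to vary like the other groups. RpS3A had 660.4 and 620.3 RPKM in fruLexA/fru4-40, against 508.5, 511.0 and 523.1 RPKM in w1118 GH, a log2 fold change of 0.32 ± 0.078 (SE, adjusted p = 0.0085). All these genes had no overlap with w1118 GH. Without fruLexA/fru4-40 sample 2 the calls of Tdg, sv, Slip1, CG31997 and RpS3A were lost, at adjusted p of 0.077 to 0.527.

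No member was called in all 3 mutants. In 2 of them 2 members were called, sv in Or47b1 and fruLexA/fru4-40 and Tdg in Or67dGAL4 and fruLexA/fru4-40, while 38 were called in 1 and 36 in none. As shares of the members these were 0%, 2.63%, 50% and 47.4% for 3, 2, 1 and 0 mutants, against 6.74%, 15.3%, 29.9% and 48.1% of all tested genes. The 3 comparisons share their w1118 GH samples. Tdg in Or47b1 was close to the threshold at 22.4, 23.2 and 20.7 RPKM, a log2 fold change of 0.46 ± 0.16 (SE, adjusted p = 0.054). In a test of any difference among the 5 groups, 56 of 76 members were called (73.7%), against 60.0% of all tested genes, and without Or67dGAL4 sample 2 the count was 36. CG1909, Rnf11, Sox102F, Ekar and Taf3 had the lowest adjusted p, from 3.0e-05 for CG1909 to 0.0013 for Taf3. ATPsynbeta, ND-49, Arf4, gw and lgs were among the 20 not called there.

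The members were also tested relative to their own chromosome, by adding the median difference of the tested members in each sample to the scaling of those genes. This fit was added after the chromosome-wide differences had been seen. Since the members' own median set the scale, it asks which genes depart from the rest of the chromosome. The same median was used for every member and was taken as known without error. A gene that shares less or more of the block than the median can thus be called below or above the chromosome. It called 0 members in w1118 SH, against 0.994% of all tested genes. It called 13 in Or47b1, against 20.6%, then 24 in Or67dGAL4, against 29.5%, and 7 in fruLexA/fru4-40, against 30.8%. In Or47b1, 8 were higher and 5 lower, against 1 and 3 on the scale of all genes. In Or67dGAL4, 12 were higher and 12 lower, against 28 and 1, and 13 genes were called both ways. In fruLexA/fru4-40, 3 were higher and 4 lower, against 9 and 0.

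**Figure D4:**
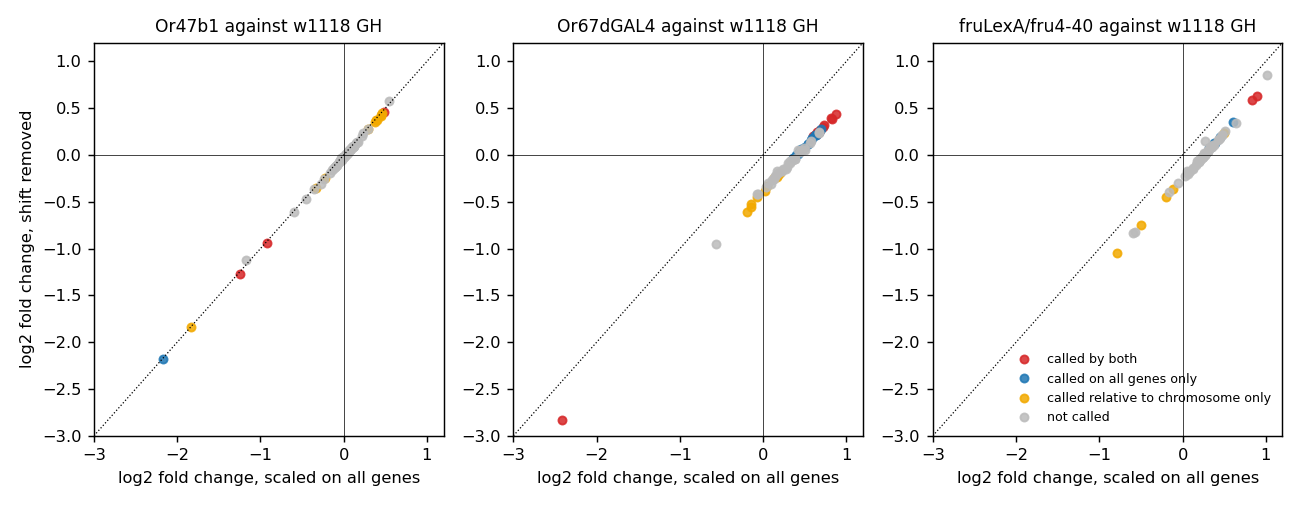
Each point is 1 of 76 tested chromosome 4 genes. The horizontal axis is its log2 fold change against w1118 GH scaled on all genes, and the vertical axis the same with the chromosome-wide shift removed, where the dotted line marks equal values. Red genes were called on both scales, blue on that of all genes, yellow relative to the chromosome and grey on neither. Points of Or47b1 lie near the line, while those of Or67dGAL4 and fruLexA/fru4-40 lie below it, and fuss is the lowest point of Or67dGAL4, at -2.41 and -2.83.

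Taf3 was the member above its chromosome in all 3 mutants. Relative to the chromosome its log2 fold change was 0.37 in Or47b1 (adjusted p = 0.00076), 0.40 in Or67dGAL4 (adjusted p = 0.00039) and 0.24 in fruLexA/fru4-40 (adjusted p = 0.020). An antisense row overlaps 19.8% of its exon bases. Ekar was below the chromosome in Or47b1, at -1.28 (adjusted p = 0.00030), and in fruLexA/fru4-40, at -1.05 (adjusted p = 0.0024), where it had 2.23 and 1.55 RPKM. In Or67dGAL4 Ekar stood at 3.26, 7.40 and 4.92 RPKM, with a log2 fold change relative to the chromosome of 0.24 (adjusted p = 0.309). fuss was below it in Or47b1, at -1.84 (adjusted p = 0.048), and in Or67dGAL4, at -2.83 (adjusted p = 0.0056), and was not called in fruLexA/fru4-40 (0.35, adjusted p = 0.672). Rnf11 was above the chromosome in fruLexA/fru4-40, at 0.63 (adjusted p = 0.00026), and below it in Or67dGAL4, at -0.55 (adjusted p = 0.00028), where its own RPKM of 8.66, 12.7 and 11.2 overlapped that of w1118 GH.

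Other genes departed from the chromosome in 1 or 2 mutants. In Or47b1 unc-13, the vesicle priming factor, stood 0.36 above it (adjusted p = 0.0087), and Actbeta, the activin ligand, 0.35 below it (-0.35, adjusted p = 0.0013). In fruLexA/fru4-40 the GABA transporter gene Gat had 20.9 and 18.5 RPKM, against 29.6, 29.0 and 24.9 RPKM in w1118 GH. Its log2 fold change was -0.75 relative to the chromosome (adjusted p = 0.0040) and -0.50 on the scale of all genes (adjusted p = 0.086). In Or67dGAL4, ci, the Hedgehog effector, was at -0.39 (adjusted p = 0.0017), and gw, the microRNA silencing factor, at -0.33 (adjusted p = 0.027). On the scale of all genes the mean differences were 0.02 for ci and 0.05 for gw. ci still moved with the chromosome between samples, at 8.29, 12.9 and 11.5 RPKM in Or67dGAL4, against 10.5, 11.3 and 10.5 RPKM in w1118 GH.

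**Figure D5:**
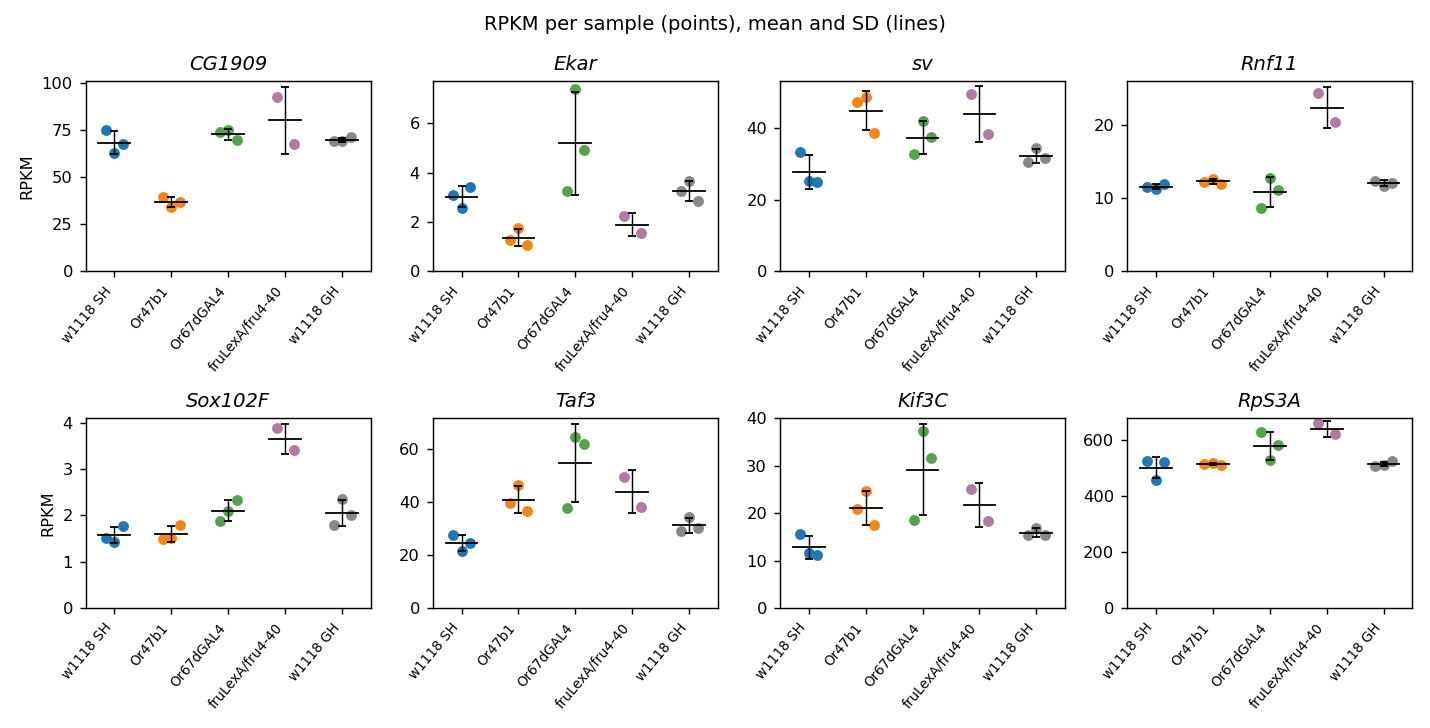
Points are RPKM of 8 chromosome 4 genes in each sample, and lines are group means with SD (n = 3, and n = 2 for fruLexA/fru4-40). CG1909 and Ekar are lowest in Or47b1, Rnf11 and Sox102F highest in fruLexA/fru4-40, and Taf3 and Kif3C spread widest in Or67dGAL4, where Taf3 runs from 37.9 to 64.6 RPKM.

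The other genes looked at act on this chromosome, on heterochromatin or in dosage compensation. Of 20 such genes tested, edgeR called 0 under single housing and DESeq2 called 1. There 2 had an unadjusted p under 0.05, a threshold for which the share of all tested genes is not given. By edgeR 1 was called higher in Or47b1, while 2 were lower in Or67dGAL4 and 3 lower in fruLexA/fru4-40. Of all tested genes 0.994% were called under single housing and 20.4%, 29.5% and 30.8% in the 3 mutants in that order. Pof itself had 9.74 to 13.3 RPKM in the 11 samples of the other groups, against 12.3, 26.0 and 13.8 RPKM in w1118 GH. Its log2 fold changes of -0.59 to -0.42 rested on w1118 GH sample 2, since without that sample they were -0.18 to -0.01, and none was called. The gene that encodes HP1a lay between -0.03 and 0.19 in the 4 comparisons. The called genes were JIL-1, a chromosomal kinase, at 0.21 in Or47b1, and the dosage compensation genes msl-2 and msl-3, at -0.29 and -0.26 in Or67dGAL4. In fruLexA/fru4-40 they were msl-2 at -0.54, the helicase gene mle at -0.21 and zeste at -0.29. Any part of these genes in the values on chromosome 4 was not tested.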

How the data were processed

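Antennal RNA was sequenced from poly(A) libraries. They were taken here not to mark strand, since the study's methods name no stranded protocol. The authors mapped reads to dm6 with MapSplice2, removed duplicates and deposited featureCounts counts per gene, with exon lengths (dm6 and featureCounts per the labels, versions not given in the sources used here). Reads shared between overlapping genes were thus taken as not assignable by strand. The authors also made additional alignments to check results against mapping ambiguity. The counts used here are labelled mapspliceMulti, and how they treat reads that map to several places was not checked. Of the members 26 overlap another gene's exons, 13 of them over more than 10% of their exon bases. Symbols came from an Ensembl annotation, which placed 82 of 83 members at the same position.

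The main test was edgeR 4.0.16 (TMM, filterByExpr, quasi-likelihood test) in R 4.3.3 on 14 samples and 5 groups in 1 fit, with p-values adjusted over 10358 genes per comparison. The common biological coefficient of variation was 0.15. DESeq2 1.42.0, other scalings, filters, references and thresholds, a replicate block and leaving out each sample were alternatives. RPKM used TMM library sizes. Tests were checked on simulated data in which each gene was drawn on its own. That check does not cover counts of genes that move together, as the members did. Members, lists and roles were chosen with earlier results of these data known. Full statistics went to up to 6 members called per direction without overlap, to members called in all mutants, to the 8 most abundant and to those called in w1118 SH. Other genes given values were chosen after their values were seen. Sample 1 of fruLexA/fru4-40, in a file of its own, entered only 1 alternative. The values of 1 member are not reported here. No sequences are shown, since none were given in the references used.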

Additional observations from a re-analysis of the deposited data

Results flagged for a closer look

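Sample 1 of fruLexA/fru4-40 carries a quality warning in its label, enters no comparison above and held 5907543 counts. Its chromosome 4 members took 2.63% of all gene counts (Wilson 95% interval 2.62% to 2.64%), against 1.98% and 1.63% in fruLexA/fru4-40 samples 2 and 3 and 1.51% to 1.57% in w1118 GH, which is why it is listed here. On the scale of all 15 samples its members had a median log2 difference of 1.25 from the w1118 GH mean, with 73 of 76 higher, and genes of the other arms with long exons had 0.31. RpS3A, ND-49 and ATPsynbeta were lower in it, at -0.57, -0.35 and -0.44. The neuronal genes elav and nSyb were at 71.5 and 554 RPKM in it, against 19.7 to 21.5 and 239 to 265 RPKM in w1118 GH. The other neuron markers did not rise with them. Orco, Ir25a and Ir8a were at 617, 66.9 and 18.3 RPKM, against 1352 to 1426, 136 to 141 and 73.8 to 80.2 RPKM in w1118 GH. Or22a was at 48.0 RPKM, against 48.3 to 57.0 RPKM. What part the quality of this library had in these values was not tested.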

How the results depend on the processing

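No called value of a named member changed sign. The Or47b1 member median, near 0, was -0.04 to 0.07 with 1 sample left out, and Or67dGAL4 members such as Cadps (0.21, and -0.19 with the chromosome-wide shift removed) and Actbeta (0.17 and -0.23) turned sign with that shift removed. For named members 398 comparisons with an alternative kept their side of the threshold and 76 lost the call. By DESeq2, 1 member was called in w1118 SH, against 0 by edgeR. Of Or47b1 members (4 called) 2 were called with all 15 samples, 13 with the compared groups only, 13 with the chromosome-wide shift removed and 18 with w1118 SH as the reference, whose member median was 0.22. Of Or67dGAL4 members (29 called) 1 was called with all 15 samples, 16 with the compared groups only and 55 with w1118 SH as the reference. Of fruLexA/fru4-40 members (9 called) 18 were called with all 15 samples, where the member median was 0.65, 5 with no filter on low counts and 38 with w1118 SH as the reference. The test of any difference called 33 with all 15 samples, against 56. At an adjusted p under 0.01 the counts were 2, 3 and 4 for Or47b1, Or67dGAL4 and fruLexA/fru4-40. After a further factor of 4 they were 1, 0 and 2, and with an absolute log2 fold change of at least 1 they were 2, 1 and 0. Leaving out 1 sample gave 0 to 1 calls for w1118 SH and 2 to 8 for Or47b1. It gave 4 to 46 for Or67dGAL4, with 12 without w1118 GH sample 1 or 3. It gave 2 to 19 for fruLexA/fru4-40, with 19 without Or67dGAL4 sample 1, 5 without w1118 GH sample 1 and 4 without w1118 GH sample 3, and 36 to 68 for any difference, with 36 without Or67dGAL4 sample 2. The cause of these changes was not tested. Shares of all tested genes are given only for the main fit and the fit with the chromosome-wide shift removed. Same-numbered samples of different groups were not taken as pairs, since their correlations of deviations ran from -0.35 to 0.36 (mean 0.041). Samples numbered 3 of the 4 groups of 3 did deviate together, at 0.19 to 0.36 in 6 pairs, while those numbered 1 were at -0.10 to 0.06 and those numbered 2 at -0.19 to 0.21. With the replicate block 0, 4, 30, 11 and 54 members were called in w1118 SH, Or47b1, Or67dGAL4, fruLexA/fru4-40 and any difference. Low counts limit fuss, ey and CR44028, and fruLexA/fru4-40 rests on 2 samples.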
